A study of Mus musculus with 8 samples.

Results

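The genes described here encode the lamins and the proteins that tie the nuclear lamina to chromatin at the inner nuclear membrane. The set was fixed by name as Lmna, Lmnb1, Lmnb2, Lbr, Emd, Tmpo, Lemd2, Lemd3, Banf1 and Ankle2, and all 10 were measured among the 22180 genes of the arrays. They took up 11 rows of the deposited table, since Tmpo has 2 rows and each other gene, Lmna included, has 1. Expression was measured in total RNA of whole mouse pancreas (strain C57 BL6) on 8 arrays, from animals injected intraperitoneally with tamoxifen at 3 mg per 40 g and labelled as day 6. The 4 control arrays, labelled LmnaWT, are called WT here, and the 4 arrays labelled LmnaKO are called KO. Each group held 3 males and 1 female, the female being replicate 4, and all animals shared the tamoxifen dose. Tamoxifen is widely used to activate inducible Cre enzymes. By its title the study ablated lamin A/C in the acinar cells, which make the digestive enzymes. The labels name neither a Cre driver nor an allele, an age or any pooling of animals. Nor do they say how replicates were obtained, so the p-values reflect the spread of these arrays alone, which may be technical.

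The nuclear lamina is a meshwork of intermediate filaments under the inner nuclear membrane, built from A-type lamins (the Lmna products lamin A and lamin C) and B-type lamins (Lmnb1 and Lmnb2). Proteins of the inner membrane such as LBR, emerin, LAP2, LEMD2 and LEMD3 (MAN1) hold the meshwork to the membrane and to heterochromatin. Many of them share the LEM domain, a short fold that binds the small DNA-bridging protein BAF, the product of Banf1. BAF gathers the chromosomes into a single nucleus after mitosis and patches ruptures of the envelope. LBR and BAF carry no LEM domain and stand in this set as partners of the lamina.

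Of the 10 genes, 5 rose in KO pancreas and 0 fell. Ankle2, the BAF regulator, rose 2.79-fold, while Lmnb1 (1.84-fold), the emerin gene Emd (1.80-fold), Lemd2 (1.79-fold) and the LAP2 gene Tmpo (1.56-fold) rose by less. Lmna, Lmnb2, Lbr, Lemd3 and Banf1 did not pass. A call here is a limma adjusted p under 0.05 after Benjamini-Hochberg adjustment over all genes, and differences are log2 values, KO minus WT, with their standard errors (SE, n = 4 per group). The 5 of 10 genes that rose stand beside 14.6% of all genes that passed as higher and 6.99% that passed as lower. The genes were chosen with earlier results of these data known, so the comparison of these shares is a description only. In these same 5 genes all KO arrays lay above all WT arrays, as they did in 15.3% of all genes, and 0 of 10 had all KO arrays below all WT arrays, against 12.1% of all genes. At an unadjusted limma p under 0.05, 1 of the 10, Lmnb2, was lower, against 17.2% of all genes. The split of all genes moved with the scaling, from 3241 higher and 1551 lower as deposited to 4390 and 615 after median centring, 1228 and 1142 under a second quantile normalization, and 1521 and 1178 under cyclic loess. The median difference of the 10 genes was 0.48, against -0.06 over all genes.

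**Figure D1:**
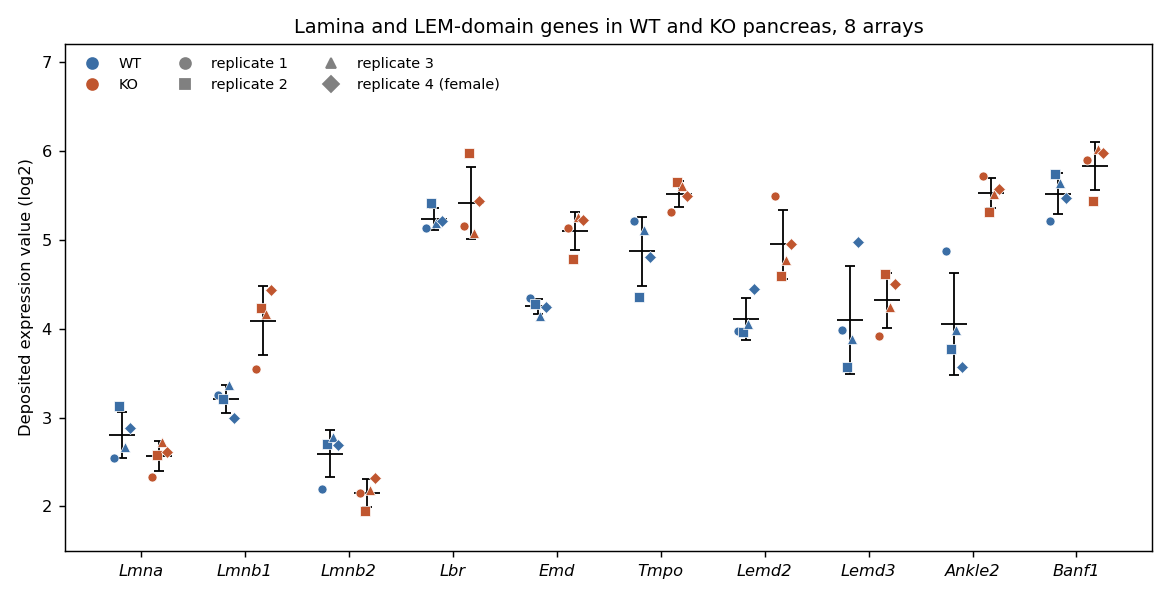
Deposited log2 expression value (y axis) of each gene (x axis) in the 4 WT arrays (blue) and 4 KO arrays (orange), with a marker shape for each replicate number; black bars are the group mean ± SD. In Lmnb1, Emd, Tmpo, Lemd2 and Ankle2 every KO array lies above every WT array, while the groups overlap in the other genes.

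The background varied with the level of a gene, and values spread more widely in KO arrays (interquartile range 2.45 to 2.65 log2 units) than in WT arrays (2.06 to 2.20). Of the 4708 genes with a mean value of 4 to 6, 37.9% passed as higher and their median difference was 0.47. Of the genes described here, 7 lie in that range, of which 4 rose, with a median of 0.64. Lmnb1 lies between 3 and 4, where 22.9% of genes passed as higher and the median was 0.26. Lmna and Lmnb2 lie between 2 and 3, where 12.2% passed as lower and the median was -0.17.

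The tissue label was checked against acinar markers, whose mean level was 10.24 to 10.39 in WT, near the top of the arrays (12.47). It was 9.59 to 9.77 in KO, and 4 of 10 measured acinar genes passed as lower and 0 as higher. Among macrophage markers 5 of 12 passed as higher, with a list level of 5.10 to 6.70 in KO and 3.62 to 5.37 in WT. Among genes of dividing cells 4 of 11 did, with 3.68 to 4.28 in KO and 3.01 to 3.59 in WT. The dimmest of the marker genes averaged 1.63, a lymphocyte gene, and the lymphocyte list lay at 1.82 to 3.31 in KO and 2.03 to 3.42 in WT, with 0 of 7 higher and 1 lower. Duct (1 of 7 higher, 1 lower), islet (0 of 6 either way), fibroblast and stellate (1 of 9 higher, 0 lower) and endothelial markers (0 of 7 either way) had list levels that overlapped between the groups. The part of these shifts in the results below was not tested, and in RNA of a whole organ fewer cells of a type and less RNA per cell cannot be told apart.

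Lmna, the gene named in the knockout, read 2.54, 3.13, 2.67 and 2.88 over WT replicates 1 to 4 and 2.33, 2.58, 2.73 and 2.61 over KO replicates 1 to 4. KO 1 lies below all WT arrays, and the other 3 KO arrays lie within the WT span. Its difference was -0.24 ± 0.15 (limma adjusted p = 0.264; two-sided exact permutation p = 0.2). The labels and annotation used here do not say where in the gene the probes of this row lie, so it does not check the genotype. Lamin A and lamin C come from the same gene by splicing, and this single row does not separate them.

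Lmnb1 encodes lamin B1, which stays farnesylated and anchored to the membrane. It read 3.25, 3.21, 3.37 and 2.99 over WT replicates 1 to 4 and 3.54, 4.23, 4.16 and 4.43 over KO replicates 1 to 4. KO 2 to KO 4 stand well above WT, while KO 1 clears the highest WT array by little. Lmnb1 rose by 0.88 ± 0.19 (limma adjusted p = 0.0124; two-sided exact permutation p = 0.0286, which 4 against 4 arrays cannot undercut). KO 1 was also the lowest of the KO arrays in the dividing-cell list (3.68, against 4.28, 4.10 and 4.11 in KO 2 to KO 4) and in the macrophage list (5.10, against 6.70, 6.15 and 6.66); their part in the Lmnb1 value was not tested. Among the 3 males per genotype alone Lmnb1 did not pass (0.70, adjusted p = 0.0932).

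Lmnb2 encodes lamin B2, the other B-type lamin. Its values were 2.20, 2.70, 2.78 and 2.69 over WT replicates 1 to 4 and 2.15, 1.95, 2.19 and 2.32 over KO replicates 1 to 4. WT 1 falls among the KO arrays, and the other 3 WT arrays lie above all KO arrays. The difference of -0.44 ± 0.15 did not pass (limma adjusted p = 0.0665; two-sided exact permutation p = 0.0571). It passed without WT 1 (-0.57, adjusted p = 0.0127) and with array weights (-0.45, adjusted p = 0.0411).

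The B-type lamins thus had differences of opposite sign, although that of Lmnb2 did not pass. Whether the 2 changes were unequal was tested within arrays, which does not test whether their signs are opposite. This pair was chosen with earlier results of these data known, so its p-value is no independent evidence for an unequal change. Genes with a mean value of 3 to 4, where Lmnb1 lies, had a median difference of 0.26. Those of 2 to 3, where Lmnb2 lies, had one of -0.17, and the part of level in this contrast was not tested. The change of Lmnb1 exceeded that of Lmnb2 by 1.32 ± 0.25 log2 units, with no overlap between the groups. The exact two-sided permutation p was 0.0286, the floor for this design, or 0.0858 after adjustment over the 3 gene pairs compared. With that floor 1 pair on its own cannot pass after adjustment, so the adjusted value says nothing for or against the difference. The excess was 1.01 under the second quantile normalization and 0.96 under cyclic loess. Taken by replicate number it was 0.33, 1.77, 1.38 and 1.80, positive in all 4 pairs (paired exact p = 0.125, the smallest that 4 pairs allow). For Lemd2 against Lemd3 the excess was 0.63 ± 0.38 (exact permutation p = 0.171, adjusted 0.257) and for Emd against Tmpo 0.20 ± 0.26 (exact permutation p = 0.429, adjusted 0.429). Neither of those pairs differed beyond the spread between arrays, which does not show that they changed alike.

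LBR, the lamin B receptor, binds B-type lamins and heterochromatin and also carries a sterol reductase domain. Lbr read 5.13, 5.41, 5.19 and 5.21 over WT replicates 1 to 4 and 5.15, 5.97, 5.08 and 5.43 over KO replicates 1 to 4. KO 2 stood clear of the WT arrays, and the other KO arrays lay within or close to their span. The difference was 0.17 ± 0.19 (limma adjusted p = 0.522), and it turned to -0.02 without KO 2 and to -0.25 and -0.23 under the second quantile normalization and cyclic loess.

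Among the LEM-domain genes, Ankle2, Emd and Tmpo rose and have an entry in the RefSeq promoter table, so the 250 bases before each of their annotated transcription starts are shown for orientation (RefSeq, GRCm38.p6, written 5' to 3' along the gene). Ankle2 has 1 start (chr5:110230754-110231003, plus strand), Emd 1 (chrX:74254437-74254686, plus strand) and Tmpo 2 (chr10:91171620-91171869 and chr10:91170551-91170800, minus strand). Capitals mark the letters searched on both strands.
Ankle2: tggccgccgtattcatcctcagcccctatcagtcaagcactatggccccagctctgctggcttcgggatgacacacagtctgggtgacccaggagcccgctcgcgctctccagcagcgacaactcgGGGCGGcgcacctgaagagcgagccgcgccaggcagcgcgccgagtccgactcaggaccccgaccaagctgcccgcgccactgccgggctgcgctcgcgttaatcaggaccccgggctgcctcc
Emd: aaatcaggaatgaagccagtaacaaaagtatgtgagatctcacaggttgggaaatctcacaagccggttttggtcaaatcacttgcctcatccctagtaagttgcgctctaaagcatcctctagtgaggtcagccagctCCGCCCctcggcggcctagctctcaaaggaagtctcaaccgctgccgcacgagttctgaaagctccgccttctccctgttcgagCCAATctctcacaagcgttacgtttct
Tmpo, first start: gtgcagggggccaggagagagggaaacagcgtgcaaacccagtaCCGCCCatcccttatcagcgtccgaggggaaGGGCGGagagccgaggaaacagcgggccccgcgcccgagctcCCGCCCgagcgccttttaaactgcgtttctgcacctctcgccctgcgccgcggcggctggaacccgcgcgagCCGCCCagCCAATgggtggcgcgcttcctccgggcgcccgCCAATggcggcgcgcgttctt
Tmpo, second start: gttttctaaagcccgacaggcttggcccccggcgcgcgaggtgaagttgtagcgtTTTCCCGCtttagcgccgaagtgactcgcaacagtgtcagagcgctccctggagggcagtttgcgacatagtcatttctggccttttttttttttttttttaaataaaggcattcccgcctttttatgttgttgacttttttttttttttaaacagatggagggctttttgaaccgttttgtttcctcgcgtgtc

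The letters searched were the CCAAT box (CCAAT), the GC box (GGGCGG), E2F letters (TTTCCCGC or TTTGGCGC), amino acid response letters (TGATGNAA) and cAMP response letters (TGACGTCA). Ankle2 held 1 GC box, Emd 1 CCAAT box and 1 GC box, the first Tmpo start 2 CCAAT boxes and 4 GC boxes, and the second Tmpo start 1 E2F match. Over the 12 windows of the 8 genes with an entry, 6 held a CCAAT box, 9 a GC box and 2 the E2F letters, while 0 held either of the others. In all 32851 windows the shares were 33.8%, 32.7%, 1.30%, 3.45% and 1.55%, in that order of motifs. Windows of the genes that did not pass held them too: Lbr had 2 CCAAT boxes and 1 GC box, Lemd3 1 of each, and the other window with the E2F letters belongs to Banf1. In the Banf1 window the E2F letters and a GC box overlap, and a match is a description of the sequence only. GC content ran from 46.0% to 77.2% over the 12 windows, against a median of 52.4% over all windows. Only the Emd window (51.2%) and the second Tmpo window (46.0%) lay below that median. The part of GC content in these matches was not tested.

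Ankle2 encodes a LEM-domain protein that brings the phosphatase PP2A to BAF and restrains the BAF kinase VRK1 as mitosis ends. It read 4.87, 3.77, 3.98 and 3.57 over WT replicates 1 to 4 and 5.72, 5.31, 5.51 and 5.57 over KO replicates 1 to 4. The KO arrays lie close together, and WT 1 is the WT array nearest to them. Ankle2 rose by 1.48 ± 0.25 (limma adjusted p = 0.00528; two-sided exact permutation p = 0.0286), and by 1.76 without WT 1. Among males alone it missed the threshold narrowly (1.31, adjusted p = 0.0511).

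Emerin, the product of the X-linked Emd, binds BAF and lamin A and is lost in a form of Emery-Dreifuss muscular dystrophy. Emd read 4.34, 4.28, 4.14 and 4.24 over WT replicates 1 to 4 and 5.13, 4.78, 5.25 and 5.22 over KO replicates 1 to 4. The WT arrays lie within a narrow band, with all KO arrays above it, and the female of each genotype lies within the range of its males. The gene rose by 0.85 ± 0.13 (limma adjusted p = 0.00415; two-sided exact permutation p = 0.0286). It was the member that also passed among males alone (0.80, adjusted p = 0.0481), and a second quantile normalization ended its call (0.44, adjusted p = 0.0779).

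Lemd2 encodes an inner membrane protein that takes part in sealing the envelope with the ESCRT adaptor CHMP7. Its values were 3.97, 3.96, 4.05 and 4.45 over WT replicates 1 to 4 and 5.49, 4.59, 4.77 and 4.95 over KO replicates 1 to 4. KO 1 was the highest, the reverse of its place in Lmnb1, and WT 4 and KO 2 nearly met. Lemd2 rose by 0.84 ± 0.20 (limma adjusted p = 0.0184; two-sided exact permutation p = 0.0286). The call was lost without KO 4 (0.84, adjusted p = 0.0522), among males (0.96, adjusted p = 0.0642), and under both the second quantile normalization (0.45) and cyclic loess (0.49).

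Tmpo encodes the LAP2 isoforms, of which some span the inner membrane and LAP2 alpha is free in the nucleoplasm with lamin A. The brighter of its 2 rows read 5.21, 4.35, 5.11 and 4.81 over WT replicates 1 to 4 and 5.31, 5.65, 5.60 and 5.49 over KO replicates 1 to 4. KO 1 exceeds WT 1 by little, and WT 2 is the lowest array. The row rose by 0.64 ± 0.19 (limma adjusted p = 0.0389; two-sided exact permutation p = 0.0286). Of the 5 members that rose, Tmpo lost its call most often, under 11 of 18 alternatives, among them the replicate block (0.64, adjusted p = 0.0516), males alone (0.63, adjusted p = 0.16), the mean of its rows (0.33) and removal of WT 2 (0.47), WT 4 (0.62), KO 2 (0.60), KO 3 (0.61) or KO 4 (0.65). Its difference was smallest, at 0.24, under the second quantile normalization (limma adjusted p = 0.349) and cyclic loess (limma adjusted p = 0.305). A term for sex also ended the call (0.64, limma adjusted p = 0.0558). The dim second row, at 1.15 to 1.62 in WT and 1.26 to 1.57 in KO, differed by 0.02 (exact permutation p = 0.886). The labels do not say which isoforms either row covers.

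Lemd3, or MAN1, binds receptor-regulated SMADs and dampens TGF-beta and BMP signalling. Lemd3 read 3.98, 3.57, 3.88 and 4.97 over WT replicates 1 to 4 and 3.92, 4.61, 4.24 and 4.50 over KO replicates 1 to 4. The female WT array is the highest of all 8, and the groups overlap. The difference was 0.22 ± 0.28 (limma adjusted p = 0.577), turning to -0.10 under a second quantile normalization and -0.09 under cyclic loess.

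BAF itself is encoded by Banf1, which read 5.21, 5.74, 5.64 and 5.47 over WT replicates 1 to 4 and 5.90, 5.43, 6.02 and 5.97 over KO replicates 1 to 4. KO 2 falls among the WT arrays, while the other KO arrays lie above them. The difference of 0.32 ± 0.17 did not pass (limma adjusted p = 0.19; two-sided exact permutation p = 0.143), and it turned to -0.12 under a second quantile normalization and -0.09 under cyclic loess.

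**Figure D2:**
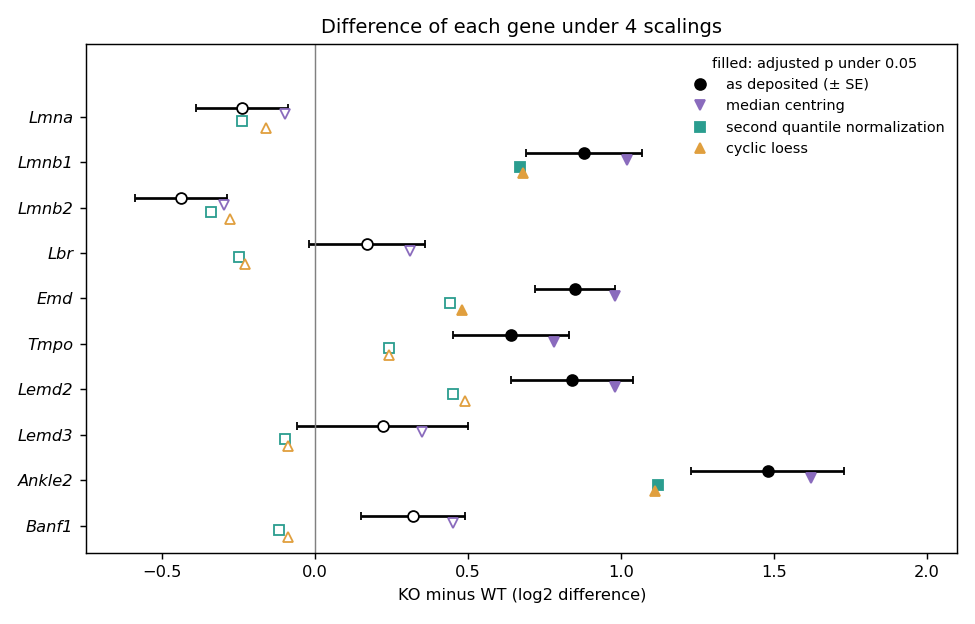
Difference between KO and WT (x axis, log2, KO minus WT) of each gene (y axis) as deposited (circles, ± SE) and after median centring, a second quantile normalization and cyclic loess; filled markers have an adjusted p under 0.05. Ankle2 and Lmnb1 stay filled under all 4 scalings, and Lbr, Lemd3 and Banf1 change sign under the second quantile normalization and cyclic loess.

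The size of these differences moved with the scaling of the arrays. Under a second quantile normalization, which removes the wider spread of the KO arrays, the median over the 10 genes was 0.07, and it was 0.08 under cyclic loess. Ankle2 kept a difference of 1.12 (adjusted p = 0.0204) and 1.11 (adjusted p = 0.0133) under these scalings, and Lmnb1 of 0.67 (adjusted p = 0.0337) and 0.68 (adjusted p = 0.0359). Under cyclic loess Emd also passed (0.48, adjusted p = 0.0482). Median centring shifted the other way, to 1.62 for Ankle2 and 1.02 for Lmnb1, and moved the median of all genes to 0.081.

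**Figure D3:**
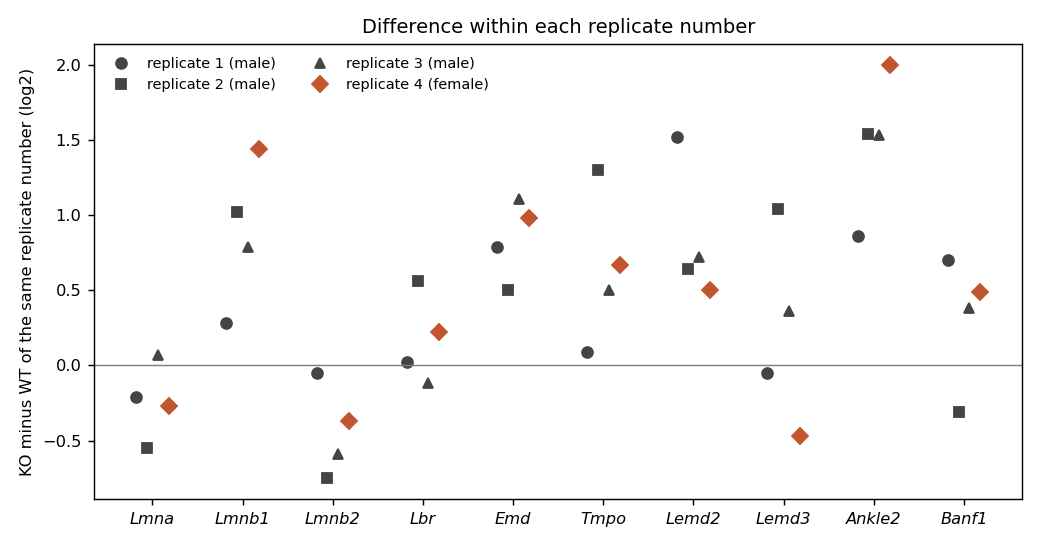
Difference between the KO and WT arrays of the same replicate number (y axis, log2) for each gene (x axis); dark markers are the 3 male pairs and the orange diamond is the female pair. All 4 pairs are above 0 in Lmnb1, Emd, Tmpo, Lemd2 and Ankle2, and all 4 are below 0 in Lmnb2.

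Arrays of the same replicate number deviated together weakly across genes (correlations of 0.11 to 0.263), so differences within each number were also read. The unmatched WT 4 and KO 2 reached 0.125, above the matched WT 3 and KO 3 (0.11), and the labels do not give a pairing. Ankle2 differed by 0.86, 1.54, 1.53 and 2.00 in replicates 1 to 4 and Emd by 0.79, 0.50, 1.11 and 0.98. Lmnb1 differed by 0.28, 1.02, 0.79 and 1.44, and Lemd2 by 1.52, 0.64, 0.72 and 0.50. The order of the replicates thus differed from gene to gene, replicate 1 being the smallest for Lmnb1 and Ankle2 and the largest for Lemd2. Lmnb2 was lower in KO in all 4 pairs, from -0.75 to -0.05, although it did not pass with the replicate number as a block either (adjusted p = 0.0742).

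The female pair was set against the males with 1 female per genotype, whose spread was assumed to be that of the males. The difference between the sexes in the effect was -0.92 ± 0.43 for Lemd3 (female -0.47, males 0.45) and 0.74 ± 0.42 for Lmnb1 (female 1.44, males 0.70). Those of the other members were smaller in size. They were 0.69 ± 0.58 for Ankle2, -0.46 ± 0.48 for Lemd2, 0.24 ± 0.44 for Banf1 and 0.18 ± 0.34 for Emd. For Lmna, Tmpo, Lbr and Lmnb2 they ran from -0.04 to 0.09. None of the 10 passed (limma adjusted p = 1.0 for each, unadjusted p of 0.0645 for Lemd3 as the lowest), and 0.00451% of all genes did.

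The enzymes and partners that act on the lamina were described from 5 lists. These were written with earlier results of these data known, so their counts are a description only. Beside their counts stand 14.6% of all genes that passed as higher and 6.99% as lower, with a median of -0.06. The shares higher were 22.9% (median 0.26) at a mean value of 3 to 4 and 37.9% (median 0.47) at 4 to 6. In the first list, the enzymes that farnesylate and cut prelamin A, 3 of 5 measured genes rose and 0 fell, with a median of 0.82. Zmpste24, the protease that releases mature lamin A, read 5.53, 4.90, 5.34 and 5.12 over WT replicates 1 to 4 and 6.05, 6.07, 5.95 and 6.11 over KO replicates 1 to 4. It rose by 0.82 ± 0.15 (limma adjusted p = 0.00644), with all KO arrays above WT. The farnesyltransferase subunit Fnta (0.85 ± 0.16) and the CAAX protease Rce1 (0.91 ± 0.23) rose too, while the partner subunit Fntb (0.11 ± 0.13) and the methyltransferase Icmt (-0.25 ± 0.14) did not pass. These calls are lost among males alone (0.77 for Zmpste24, 0.90 for Fnta and 0.72 for Rce1). Those of Fnta (0.42 and 0.45) and Rce1 (0.71 and 0.74) are also lost under the second quantile normalization and cyclic loess, where Zmpste24 passed at 0.40 and 0.41. That of Rce1 is lost also without WT 3, KO 1, KO 3 or KO 4.

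Against 14.6% higher and 6.99% lower over all genes, 4 of 11 measured kinases and phosphatases of lamins and BAF rose and 1 fell. Their median was 0.67, against -0.06 over all genes. With the replicate number as a block 6 rose, Prkcb (limma adjusted p = 0.0176) and Prkcd (limma adjusted p = 0.0384) being added. The BAF kinase Vrk1 read 4.16, 3.97, 3.92 and 4.05 over WT replicates 1 to 4 and 4.56, 4.94, 4.54 and 4.73 over KO replicates 1 to 4, and rose by 0.67 ± 0.13 (limma adjusted p = 0.00845). The PP2A catalytic subunit Ppp2ca rose by 0.82 ± 0.12 (limma adjusted p = 0.00331) and held that call in all 18 alternatives, at 0.44 under the second quantile normalization, 0.47 under cyclic loess and 0.51 with the mean of its rows. Akt1, a kinase that phosphorylates lamin A among many targets, read 7.15 to 7.65 in WT and 6.42 to 6.65 in KO. Akt1 fell by 0.82 on the log2 scale (± 0.13, limma adjusted p = 0.00478), also in all 18 alternatives. The other risers, named after their values were seen, were the PP2A subunits Ppp2r1a (0.86 ± 0.18) and Ppp2r2a (1.01 ± 0.26). The mitotic kinase Cdk1 (0.30 ± 0.17) and the second BAF kinase Vrk2 (-0.50 ± 0.23) did not pass. The Vrk1 call is lost among males at a like size (0.66), and under the second quantile normalization (0.30) and cyclic loess (0.33). That of Ppp2r1a is lost among males (0.82), its value being 0.54 and 0.49 under those scalings. That of Ppp2r2a is lost under the same scalings (0.66 and 0.65) and without WT 3, KO 2, KO 3 or KO 4.

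**Figure D4:**
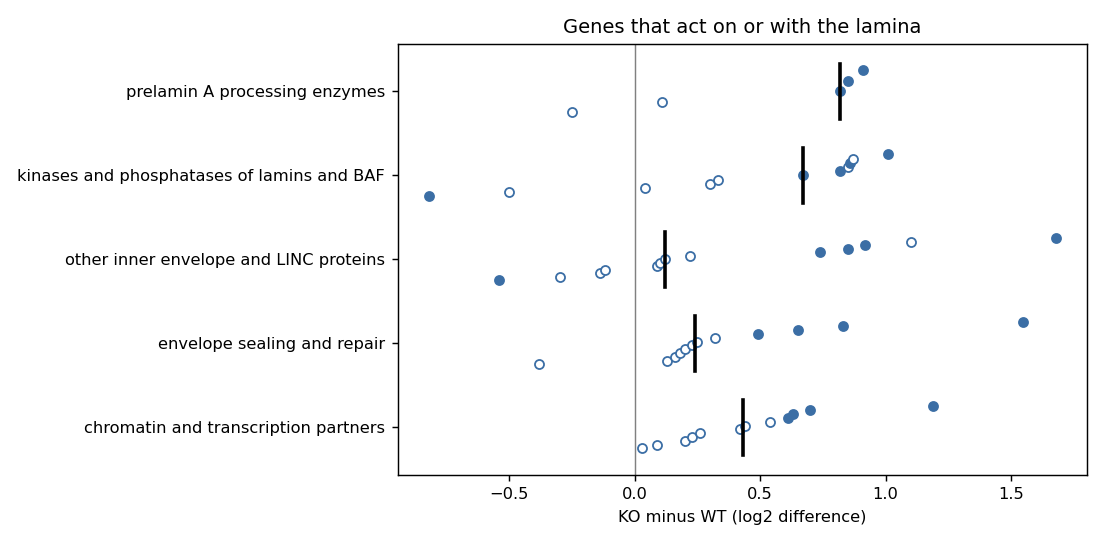
Difference between KO and WT (x axis, log2, KO minus WT) of each measured gene of the 5 lists (y axis); filled circles have an adjusted p under 0.05 and the vertical bar is the list median. The medians run from 0.12 for other inner envelope proteins to 0.82 for prelamin A processing enzymes.

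Of the other proteins of the inner envelope and of the LINC complex, which links it to the cytoskeleton, 4 of 13 rose and 1 fell (median 0.12). Over all genes 14.6% rose and 6.99% fell (median -0.06). LUMA, the product of Tmem43, binds emerin and lamins, and Tmem43 read 2.85 to 3.32 in WT and 4.69, 4.67, 5.43 and 4.59 in KO 1 to KO 4. It rose by 1.68 ± 0.20 (limma adjusted p = 0.00192) and held in all 18 alternatives. The torsin activators Tor1aip1 (0.92 ± 0.15), whose product LAP1 binds lamins at the inner membrane, and Tor1aip2 (0.85 ± 0.15), whose product LULL1 spans the endoplasmic reticulum, also rose. Both missed the threshold among males at a like size (0.91 and 0.80), and were smaller but passed under the second quantile normalization (0.54 and 0.51) and cyclic loess (0.55 and 0.52). Named after their values were seen, Nemp1 rose (0.74 ± 0.19) and Ankle1, a LEM-domain nuclease related to Ankle2, was lower (-0.54 ± 0.17, limma adjusted p = 0.0487). The Ankle1 call held in 5 of 17 alternatives. It was lost with the replicate block (adjusted p = 0.0741), with median centring (-0.40), among males and without any 1 array but KO 2. It passed under the second quantile normalization (-0.68, limma adjusted p = 0.0289) and cyclic loess (-0.63, limma adjusted p = 0.0386). The Nemp1 call was lost among males, without WT 3, KO 2, KO 3 or KO 4, and with the mean of its rows (0.16). The Nemp1 row used had a mean value of 2.56, and at 2 to 3 5.07% of genes passed as higher (median -0.17). Lemd1, the last LEM-domain gene, was dim (mean value 1.45) and did not pass (-0.30 ± 0.11, limma adjusted p = 0.0814). All its KO arrays lay below all WT arrays, as they did in 12.1% of all genes. Among the LEM-domain genes only Lemd1 and Ankle1 had negative differences. The Lemd1 row is dim, and the Ankle1 call was lost in most alternatives but kept under the second quantile normalization and cyclic loess.

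In the list of envelope sealing and repair 4 of 12 genes rose and 0 fell (median 0.24). The list also holds the DNA-sensing genes Cgas and Sting1, of which Sting1 is among those that rose. Over all genes 14.6% rose (median -0.06), and over those with a mean value of 4 to 6 37.9% did (median 0.47). The ESCRT ATPases Vps4b (0.83 ± 0.20) and Vps4a (0.65 ± 0.18) and the ESCRT-III subunit Chmp4b (0.49 ± 0.13) rose, but each lost its call under both the second quantile normalization and cyclic loess, among males alone, and without KO 3 or KO 4. Under these scalings the values were 0.46 and 0.44 for Vps4b, 0.24 and 0.27 for Vps4a, and 0.09 under each for Chmp4b. Among males they were as large as with all arrays (0.83, 0.70 and 0.49). Chmp4b lost it also without WT 4 or KO 1, and Vps4a without WT 2, WT 4 or KO 1. Chmp7, the partner of LEMD2, did not pass (0.32 ± 0.16, limma adjusted p = 0.162). Sting1, named after its values were seen, rose by 1.55 ± 0.48 (limma adjusted p = 0.0459), reading 2.98, 5.08, 3.51 and 5.28 in KO 1 to KO 4. The Sting1 call held in 7 of 17 alternatives and was lost without any 1 array but KO 1 (1.19 without KO 4), among males and under the second quantile normalization and cyclic loess. The macrophage list was also highest in KO 2 and KO 4 (6.70 and 6.66), and its part in the Sting1 value was not tested. The cytosolic DNA sensor Cgas ranged from 1.08 to 1.68 and did not pass (0.13 ± 0.16).

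Of the chromatin and transcription partners, 4 of 12 measured genes rose and 0 fell (median 0.43). The shares that rose were 14.6% of all genes (median -0.06) and 37.9% of those with a mean value of 4 to 6 (median 0.47). Rb1, which LAP2 alpha and lamin A bind, rose by 1.19 ± 0.26 (limma adjusted p = 0.0138). Among males it was as large but did not pass (1.22, adjusted p = 0.0817). It was 0.81 under the second quantile normalization, 0.79 under cyclic loess and 0.75 with the mean of its rows, and passed under each. The heterochromatin proteins Cbx1 (0.61 ± 0.12) and Cbx3 (0.63 ± 0.14), which LBR binds, rose, while their paralog Cbx5 did not pass (0.26 ± 0.19). The deacetylase Hdac3, a partner of emerin and LAP2 beta named after its values were seen, rose by 0.70 ± 0.20. The SMADs that MAN1 binds did not pass, Smad2 being the nearest (0.54 ± 0.21, limma adjusted p = 0.0914). Cbx1 and Cbx3 lost their calls among males (0.57 and 0.55), under the second quantile normalization (0.27 and 0.34) and under cyclic loess (0.30 and 0.28), and Cbx3 also with the mean of its rows (0.39). Hdac3 lost its call among males (0.59), under those scalings (0.29 and 0.30) and without WT 2, WT 4, KO 1, KO 2 or KO 4.

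Some genes followed the members closely over the 8 arrays, which fall into 2 genotypes, so any gene that differs between them correlates with any other. Of 5974 named genes with a mean value of at least 4, the most like Ankle2 were Gabpa, a subunit of a GGAA-binding transcription factor (Pearson r = 0.996), Prepl (0.995) and the ribosomal RNA methyltransferase Dimt1 (0.995). Lmnb1 was followed most closely by the interleukin receptor chain Il13ra1 (0.982), Bnip2 (0.978) and Prpf38b (0.970). For Lmnb2 they were Rilp (0.951), the clathrin light chain Cltb (0.943) and Myo15b (0.941), and for Lmna the sialidase Neu1 (0.959), Pelo (0.940) and Ccdc124 (0.938).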

How the data were processed

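Total RNA of mouse pancreas was labelled with biotin using a whole-transcript kit, per the labels' protocols, and measured on 8 arrays. The authors deposited 1 table of log2 expression values, of 41345 rows. The submitters' processing notes name oligo, RMA and limma, with no versions. RMA corrects background, normalizes and summarizes probes; the log base was read from the range of the values. Signal over background, probe positions and scan batches were not analysed here. Every column was mapped to a sample.

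Rows with 1 gene symbol in the platform annotation (23521) were kept; 1814 with several and 16010 with none were left out. For 1082 genes in several rows the row of highest mean was used, which left 22180 genes; dim rows were kept. Differences were fitted over all genes with limma 3.58.1 in R 4.3.3 (lmFit, eBayes; genotype only) and adjusted by Benjamini-Hochberg. Exact permutation tests used scipy 1.17.1 and take arrays as unpaired. The number of arrays limits the precision. The fit was also run on simulated data with independent normal noise of each gene's fitted variance. Such data lack the wider spread of the KO arrays, so that run does not check the fit on the real arrays.

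Members, lists and the pair of Lmnb1 and Lmnb2 were chosen with earlier results of these data known, and the promoter motifs after seeing the values. The rule for named genes took all members, up to 3 genes of smallest p per list among calls whose groups did not overlap, and the 3 genes most correlated with Lmna, Lmnb1, Lmnb2 and Ankle2. Lists were prelamin A processing enzymes, kinases and phosphatases of lamins and BAF, other inner envelope and LINC proteins, envelope sealing and repair, and chromatin and transcription partners, with marker lists for acinar, duct, islet, macrophage, lymphocyte, fibroblast and stellate, endothelial and dividing cells. Same-numbered WT and KO arrays correlated in their deviations from the group means across genes (0.263, 0.165, 0.11 and 0.138 for numbers 1 to 4), all above 0.1. The fit with the replicate number as a block is therefore given beside a result where it changes the call, and the main fit and tests stay unpaired. This pairing is read from the data and not from the labels. Of the other pairs WT 4 with KO 2 (0.125) and WT 3 with KO 1 (0.106) were above it too. Alternatives were a term for sex or for replicate number, the males by themselves, leaving out each array, other scalings (quantile normalization applied again, median centring, cyclic loess), trend and robust eBayes, array weights, a level filter and the mean of a gene's rows.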

Additional observations from a re-analysis of the deposited data

Results flagged for a closer look

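In Lmnb2 the WT array farthest from the others, WT 1 (2.20 against 2.69 to 2.78), stood apart by 0.838 of the whole WT range, above Dixon's 95% limit for 4 arrays. In Tmem43 the array KO 3 (5.43 against 4.59 to 4.69) stood apart by 0.89 of the KO range. In Sting1 the array WT 1 (2.07 against 2.79 to 2.91) stood apart by 0.85 of the WT range. These were 3 of 62 groups looked at, where chance gives about 1 in 20.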

How the results depend on the processing

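Of the 18 alternatives, the number of the 10 genes higher in KO moved from 5 to 1 among males only (Emd), 2 after a second quantile normalization (Ankle2, Lmnb1) and 3 after cyclic loess (these and Emd), and ran from 3 (without KO 4) to 5 when each array was left out. The number lower moved from 0 to 1 (Lmnb2) with array weights, and ran from 0 to 1 (without WT 1) when each was left out. Differences turned for Lbr (-0.25 after the second quantile normalization, -0.23 after cyclic loess, -0.02 without KO 2, up to 0.28 without KO 3), Lemd3 (-0.10 and -0.09) and Banf1 (-0.12 and -0.09). With the replicate block 4 genes rose, Tmpo losing its call (0.64, adjusted p = 0.0516), and no other call among the 10 changed; among the genes of the 5 lists it added Prkcb and Prkcd and lost Ankle1. The excess of Lmnb1 over Lmnb2 was 1.32 with the replicate block and 1.16 among males only, and 1.21 to 1.5 when each array was left out. Those designs cannot give an exact p under 0.05 (smallest 0.125, 0.1 and 0.0571). It was 1.01 after the second quantile normalization and 0.96 after cyclic loess, each with an exact p of 0.0286. Over all genes, 3241 were higher and 1551 lower, against 1228 and 1142 after the second quantile normalization, 1521 and 1178 after cyclic loess, 4390 and 615 after median centring, 770 and 145 among males, 2543 and 291 with the level filter, 3713 and 2357 without WT 1 and 1781 and 459 without KO 4; the lower count ran from 711 to 1146 without 1 of the other arrays. The cause of these moves was not tested. The level filter left out Lmna, Lmnb1 and Lmnb2 and the pair test was not run with terms for sex, other eBayes settings, weights or the filter. Signal over background is unknown, so how far dim rows can be read is unknown too.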

Other observations

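Syne1, which encodes the outer envelope protein nesprin 1, read 4.42 to 4.79 in the WT arrays and 4.47, 7.42, 5.38 and 5.57 in KO 1 to KO 4. Its difference did not pass (1.10 ± 0.50, limma adjusted p = 0.132), and KO 2 stood furthest from the other arrays. The protein kinase C genes Prkcb (3.02, 5.16, 3.28 and 4.2 in KO 1 to KO 4) and Prkcd (5.09, 6.76, 5.37 and 6.69) were highest in KO 2 and KO 4. Neither passed in the unpaired fit (0.87 ± 0.46 and 0.85 ± 0.37, limma adjusted p = 0.189 and 0.119), and both passed with the replicate number as a block (limma adjusted p = 0.0176 and 0.0384). These genes were chosen after their values were seen. The macrophage list level in the same arrays was 5.10, 6.70, 6.15 and 6.66, and its part in these values was not tested.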
